A study of Saccharomyces cerevisiae with 8 samples.

Results

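This account concerns 10 genes of the budding yeast Saccharomyces cerevisiae that switch cells between glucose and other carbon sources: the activator genes CAT8, ADR1, SIP4 and HAP4, the repressor genes MIG1, MIG2 and MIG3, the kinase gene SNF1, the phosphatase subunit gene REG1 and the invertase gene SUC2. They were taken by gene symbol from the array's platform annotation, and each of the 10 was read by 1 probe set of its own, out of 5449 S. cerevisiae genes on the array. The study set 3 strains side by side on Affymetrix arrays, on which a set of short probes reads each gene and is summarised as 1 signal. The double mutant, esa1 sup2-, carries mutations in ESA1, which encodes an essential histone acetyltransferase, and in SUP2 (3 arrays). The single mutant, ESA1 sup2-, has ESA1 and the sup2- mutation (3 arrays), and the wild type, ESA1 SUP2, has both genes (2 arrays). SUP2 is not identified further in the labels, nor is the esa1 allele, and nothing there tells whether arrays of a strain came from separate cultures or clones. If they did not, the p-values describe technical spread alone. All strains were grown overnight at 30 °C to saturation in 10 mL of rich medium made up with 2% glucose, and the labels give no glucose reading at harvest. In bulk RNA, a lower signal in every cell and a signal lost from some of the cells cannot be told apart.

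While glucose is plentiful, the zinc finger repressor Mig1 and its relative Mig2 recruit the corepressor Cyc8-Tup1 to genes such as SUC2. Meanwhile the phosphatase Glc7 with its subunit Reg1 keeps the kinase Snf1 inactive. When glucose runs low, Snf1, the yeast relative of AMP-activated protein kinase, becomes active, Mig1 leaves the nucleus, and Cat8, Sip4, Adr1 and Hap4 turn on genes for growth on ethanol, acetate, fatty acids and by respiration. Several of these regulators are themselves controlled through their transcripts: CAT8 and HAP4 are repressed by glucose, whereas MIG2 is induced by it.

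The signals carry the scaling given by the submitters and have arbitrary units, so they compare strains for 1 gene and not genes with each other. ESA1 itself gave signals of 1.19, 3.34 and 0.27 in the double mutant, 819, 894 and 877 in the single mutant and 1216 and 1067 in the wild type. Its 3 double-mutant signals were below the array background, taken as the 99th percentile of probe sets for genes of other organisms (8.23 to 12.38 over the arrays), while no signal of the 10 genes was. A gene is described as higher or lower, or as called, where limma's Benjamini-Hochberg adjusted p over all probe sets was under 0.05. Several settings were varied as alternatives, among them scaling on poly-A controls, bacterial transcripts added to the RNA before labelling, or on hybridisation controls, added before the array was filled. Against their mean over the 8 arrays, the log2 level of the poly-A controls was -0.49 on double-mutant replicate 1. It was -0.02 and -0.03 on replicates 2 and 3, and 0.04 to 0.18 on the other arrays, so poly-A scaling moves that 1 array most. Precision is limited by how few arrays there are. Within strains, single-mutant replicate 2 stood apart from replicates 1 and 3 (SD of log2 differences over all probe sets 0.210 and 0.206, against 0.0900 between those 2), and double-mutant arrays differed from each other by 0.262 to 0.323. The fluidics station that washed the arrays was a different one for each strain, so station and strain cannot be told apart in any comparison below.

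**Figure D1:**
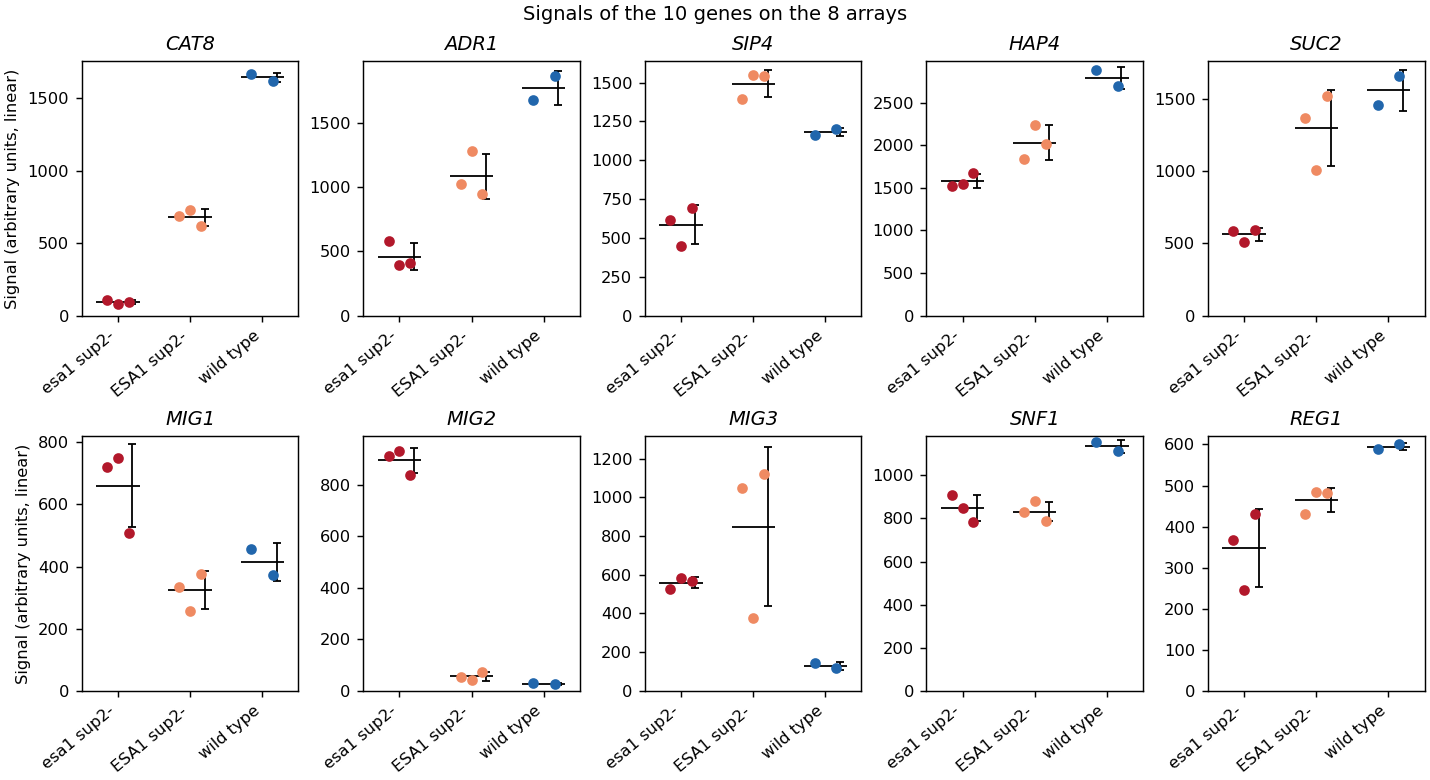
Signal of each of the 10 genes on every array (points; arbitrary units on a linear axis from 0), with the strain mean (line) and SD (bar), for esa1 sup2- (n = 3), ESA1 sup2- (n = 3) and wild type (n = 2). CAT8, ADR1, SIP4, HAP4 and SUC2 lie lowest in esa1 sup2-, MIG2 is far higher there than in the other strains, and the MIG3 signals of ESA1 sup2- are split between 375 on replicate 2 and over 1000 on the others.

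In the double mutant the activator genes and SUC2 were lower than in either other strain, and MIG1 and MIG2 were higher. CAT8 (YMR280C, chromosome XIII), which encodes a zinc cluster activator of gluconeogenesis and the glyoxylate cycle, gave signals of 107, 79.1 and 96.3 in the double mutant, 688, 729 and 617 in the single mutant and 1668 and 1621 in the wild type. The 3 strains formed separate levels with no overlap, lowest in the double mutant and highest in the wild type. Its mean of 94.2 ± 14.2 in the double mutant (SD, n = 3) was 7.20-fold lower than the 678 ± 56.5 of the single mutant (SD, n = 3), which was -1.89 on the log2 scale (SE 0.08, limma adjusted p = 2.6e-07). Log2 fold changes here were computed on log2(signal + 121), which understates the change of dim genes. The single mutant in turn was 2.43-fold lower than the wild type, whose mean was 1645 ± 33.2 (SD, n = 2), which was -1.15 on the log2 scale (SE 0.09, limma adjusted p = 3.1e-05). Between the double mutant and the wild type the means differed 17.5-fold, the double mutant being lower, or by -3.04 on the log2 scale (SE 0.09, limma adjusted p = 2.4e-08). The size depended on the pseudocount added before taking logs: for the double against the single mutant it was -2.66 with a pseudocount of 16 and -0.99 with one of 500, and all remained called.

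ADR1 (YDR216W, chromosome IV) encodes the zinc finger activator of the alcohol dehydrogenase gene ADH2 and of genes for fatty acid and glycerol use. Its signals were 579, 390 and 410 in the double mutant, 1023, 1279 and 946 in the single mutant and 1676 and 1863 in the wild type, again 3 levels without overlap. The double mutant was 2.36-fold lower than the single mutant (log2 fold change -1.06, SE 0.14, limma adjusted p = 2.0e-04). The single mutant was 1.63-fold lower than the wild type (log2 fold change -0.66, SE 0.16, limma adjusted p = 8.0e-03). That step was not called when wild-type replicate 2 was left out (limma adjusted p = 0.069); limma adjusted p ran between 2.4e-03 and 0.069 across 20 alternatives. ADR1 and CAT8 shared the order double mutant, single mutant, wild type, with CAT8 spanning the wider range.

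SIP4 (YJL089W, chromosome X) encodes another zinc cluster activator, which binds the same carbon source-responsive element as Cat8. It did not follow that order. Its signals were 615, 450 and 693 in the double mutant, 1392, 1547 and 1542 in the single mutant and 1162 and 1200 in the wild type, so that the single mutant was highest. The double mutant was 2.55-fold lower than the single mutant (log2 fold change -1.21, SE 0.12, limma adjusted p = 4.4e-05) and 2.01-fold lower than the wild type (log2 fold change -0.90, SE 0.14, limma adjusted p = 3.3e-04). All 3 single-mutant arrays lay above both wild-type arrays, but the log2 difference of 0.31 (95% interval -0.01 to 0.63) was not called (limma adjusted p = 0.093). It was called in 4 of 20 alternatives, where limma adjusted p ran from 4.7e-03 to 0.281: quantile normalization, the fit of these 2 strains only, and the fits without double-mutant replicate 2 or 3.

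HAP4 (YKL109W, chromosome XI) encodes the activating subunit of the CCAAT-binding complex that drives respiratory genes. Against the single mutant and against the wild type, the fall of HAP4 in the double mutant was the smallest of the 4 activator genes. Signals were 1517, 1546 and 1677 in the double mutant, 1833, 2241 and 2013 in the single mutant and 2879 and 2700 in the wild type. The strains did not overlap and kept the order seen for CAT8. The double mutant was 1.28-fold lower than the single mutant (log2 fold change -0.33, SE 0.09, limma adjusted p = 7.7e-03) and 1.77-fold lower than the wild type (log2 fold change -0.78, SE 0.10, limma adjusted p = 8.1e-05). The single mutant was 1.37-fold lower than the wild type (log2 fold change -0.44, SE 0.10, limma adjusted p = 5.1e-03). The step between the mutants was not called after centring each array on its median (-0.20, limma adjusted p = 0.059) or scaling on poly-A control probe sets (-0.09, limma adjusted p = 0.700), with limma adjusted p between 4.0e-03 and 0.700 across 20 alternatives. The step between the single mutant and the wild type was not called with that scaling (limma adjusted p = 0.171) or without wild-type replicate 1 (limma adjusted p = 0.055), with a range of 2.7e-03 to 0.171.

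SUC2 (YIL162W, chromosome IX) encodes invertase, which splits sucrose outside the cell and is the classic readout of release from glucose repression. Its signals were 587, 508 and 592 in the double mutant, 1365, 1005 and 1518 in the single mutant and 1459 and 1661 in the wild type. The double-mutant arrays lay well below all others, while the single mutant and the wild type overlapped. SUC2 averaged 562 ± 47.2 in the double mutant (SD, n = 3), 2.31-fold lower than the 1296 ± 264 of the single mutant (SD, n = 3), which was -1.04 on the log2 scale (SE 0.14, limma adjusted p = 1.7e-04). Against the wild type it was 2.78-fold lower (log2 fold change -1.30, SE 0.15, limma adjusted p = 5.5e-05). The single mutant differed from the wild type by -0.26 on the log2 scale (95% interval -0.61 to 0.08, limma adjusted p = 0.182), which was not called. The value was -0.10 without single-mutant replicate 2 and -0.18 without wild-type replicate 2, and -0.38 without single-mutant replicate 3, none of them called. CAT8 and ADR1 had a called step between these strains and SUC2 had none, but whether the steps of these genes differ from each other was not tested.

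Among the repressor genes, MIG2 (YGL209W, chromosome VII) separated the double mutant most sharply. Its signals were 914, 931 and 840 in the double mutant, 51.5, 41.7 and 73.7 in the single mutant and 29.7 and 25.0 in the wild type. The mean of 895 ± 48.3 in the double mutant (SD, n = 3) was 16.1-fold higher than the 55.6 ± 16.4 of the single mutant (SD, n = 3) and 32.7-fold higher than the 27.3 ± 3.36 of the wild type (SD, n = 2). Averaged over all arrays MIG2 was among the dimmest 20% of probe sets, which were left out of the main fit, so its statistics come from a fit with no such filter. There the double mutant was higher than the single mutant by 2.53 (SE 0.08, limma adjusted p = 5.5e-08) and higher than the wild type by 2.77 (SE 0.09, limma adjusted p = 5.1e-08) on the log2 scale. Since MIG2 is dim in the other strains, the first value was 3.69 with a pseudocount of 16 and 1.33 with one of 500. The single mutant exceeded the wild type by only 0.25 on this scale (limma adjusted p = 0.041), a call lost in 8 of 18 alternatives, among them leaving out either wild-type array (limma adjusted p = 0.129 and 0.195) or single-mutant replicate 1 or 3 (0.080 and 0.136).

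MIG1 (YGL035C, chromosome VII) encodes the main repressor of the pathway, and it rose in the double mutant by less than MIG2. It gave 722, 751 and 507 in the double mutant, 336, 257 and 377 in the single mutant and 458 and 372 in the wild type. The double-mutant arrays lay above all others, with replicate 3 nearest to them, and the single mutant overlapped the wild type. The double mutant was 2.04-fold higher than the single mutant (log2 fold change 0.81, SE 0.15, limma adjusted p = 1.2e-03) and 1.59-fold higher than the wild type (log2 fold change 0.53, SE 0.17, limma adjusted p = 0.016). The difference from the wild type was not called without double-mutant replicate 1 (limma adjusted p = 0.052) or wild-type replicate 2 (limma adjusted p = 0.124), with limma adjusted p between 2.3e-04 and 0.124 across 19 alternatives. Between the single mutant and the wild type the log2 difference was -0.27 (95% interval -0.65 to 0.10, limma adjusted p = 0.196).

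MIG3 (YER028C, chromosome V), whose product shares the zinc finger type of Mig1 and Mig2, was higher in both mutants than in the wild type. Its signals were 529, 582 and 567 in the double mutant, 1048, 375 and 1121 in the single mutant and 144 and 115 in the wild type. Every mutant array exceeded both wild-type arrays, and single-mutant replicate 2 lay below all double-mutant arrays while replicates 1 and 3 lay above them. The single mutant exceeded the wild type 6.55-fold (log2 fold change 1.84, SE 0.33, limma adjusted p = 2.0e-03) and the double mutant did so 4.32-fold (log2 fold change 1.44, SE 0.33, limma adjusted p = 3.5e-03). With pseudocounts of 16 and 500 the first value was 2.43 and 1.05 and the second 1.99 and 0.75. Between the mutants the difference of -0.40 (95% interval -1.07 to 0.28) was not called (limma adjusted p = 0.259). Without single-mutant replicate 2 the double mutant was lower than the single mutant by -0.83 (limma adjusted p = 1.1e-04), and the single mutant's excess over the wild type was 2.27. On that same array SUC2, MIG1 and MIG2 had their lowest signals of the 3 single-mutant arrays, and CAT8, ADR1, SIP4, HAP4, SNF1 and REG1 their highest.

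SNF1 and REG1, the kinase and phosphatase side of the pathway, were lower in the double mutant than in the wild type by 1.34-fold and 1.71-fold. SNF1 (YDR477W, chromosome IV), the catalytic subunit, gave 910, 851 and 786 in the double mutant, 830, 879 and 788 in the single mutant and 1155 and 1114 in the wild type. Both mutants lay below the wild type and overlapped each other. Against the wild type the double mutant stood at -0.37 (SE 0.09, limma adjusted p = 3.4e-03) and the single mutant at -0.40 (SE 0.09, limma adjusted p = 4.8e-03) on the log2 scale. Neither was called with poly-A control scaling (-0.079 and -0.33, limma adjusted p = 0.744 and 0.229), where the ranges across 20 alternatives were 2.5e-03 to 0.744 for the double mutant and 1.3e-03 to 0.229 for the single mutant. Between the double and the single mutant it was 0.02 (95% interval -0.15 to 0.20, limma adjusted p = 0.795).

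REG1 (YDR028C, chromosome IV), the Glc7 subunit that directs the phosphatase to Snf1, gave 367, 245 and 431 in the double mutant, 431, 484 and 481 in the single mutant and 590 and 600 in the wild type. All mutant arrays lay below both wild-type arrays. The double mutant was 1.71-fold lower than the wild type (log2 fold change -0.63, SE 0.15, limma adjusted p = 4.3e-03), a call that scaling on poly-A controls took away (limma adjusted p = 0.086, in a range from 7.2e-04 across 19 alternatives). The difference of -0.34 between the double and the single mutant (SE 0.13, limma adjusted p = 0.048) was at the threshold. It was -0.17 without double-mutant replicate 2, and -0.47 to -0.17 over all arrays left out in turn. The call was lost in 13 of 19 alternatives, with limma adjusted p from 7.4e-03 to 0.517; those included leaving out either of double-mutant replicates 1 and 2 or any single-mutant or wild-type array. The single mutant and the wild type differed by -0.29 (SE 0.15), which was not called (limma adjusted p = 0.140), but it was in 3 of 19 alternatives (limma adjusted p from 6.5e-03 to 0.403): quantile normalization, the 2 strains fitted alone, and the fit without double-mutant replicate 2.

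**Figure D2:**
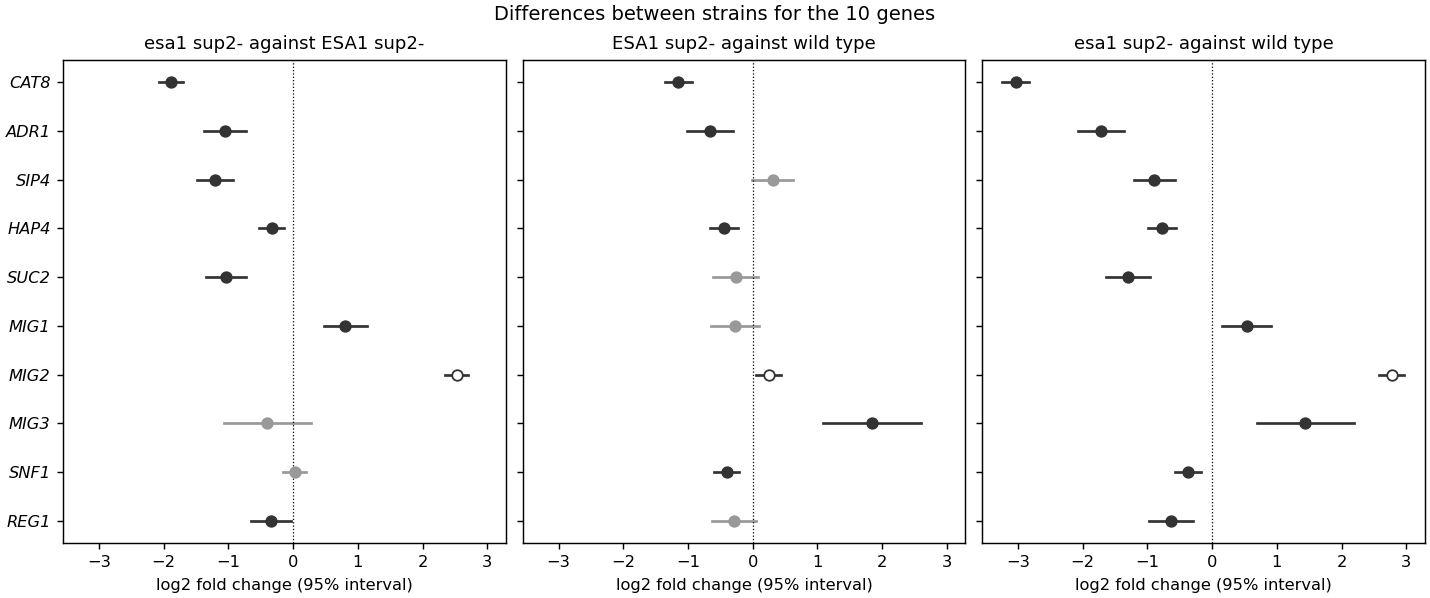
Log2 fold change with its 95% interval for each of the 10 genes in the 3 comparisons, from limma. Dark symbols are called, grey ones are not, and the open symbols mark MIG2, which was fitted without the filter on low values. In esa1 sup2- against ESA1 sup2-, CAT8 lies at -1.89, SUC2 at -1.04, MIG1 at 0.81 and MIG2 at 2.53, and SNF1 is at 0.02.

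Setting the double mutant beside the single mutant shows what went with the esa1 mutation on a sup2- background. Of the 9 genes in the main fit, 6 were lower (CAT8, ADR1, SIP4, HAP4, SUC2 and REG1) and MIG1 alone was higher. Of all 4398 probe sets tested, 35.8% were called lower and 31.8% higher, with a median log2 fold change of -0.02, so most genes were called in 1 direction or the other. Arrays did not overlap for 5 of the 9 genes on the lower side and 1 on the higher side, against 37.3% and 33.5% of all probe sets. CAT8 is dim in the double mutant and passed the filter, which reads the mean over all arrays, through the other strains. The counts therefore describe the 9 genes that passed. MIG2 was called higher in the fit without the filter, where 27.7% of 5498 probe sets were. The share of calls that were higher, 47.0% in all, was 60.0% with median centring and 69.7% with poly-A control scaling, which moved the median of all probe sets by 0.13 and 0.22, and 38.3% with scaling on hybridisation controls, which moved it by -0.10. CAT8, ADR1, SIP4 and SUC2 were called lower and MIG1 and MIG2 higher under each of the 4 scalings tried, with CAT8 between -1.97 and -1.72 and SUC2 between -1.14 and -0.81.

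Setting the single mutant beside wild type shows what went with sup2- where ESA1 was present. Here 4 of the 9 genes were lower (CAT8, ADR1, HAP4 and SNF1) and MIG3 was higher. MIG3 is dim in the wild type and passed the filter, which reads the mean over all arrays, through its mutant signals. The counts therefore describe the 9 genes that passed. Of all probe sets 22.1% were called lower and 28.5% higher, with a median log2 fold change of 0.01. Arrays did not overlap for 5 of the 9 genes on the lower side and 2 on the higher side, against 37.4% and 40.4% of all probe sets, and MIG2 was called higher without the filter, as were 26.1% of probe sets. The higher share of calls, 56.3%, was 70.3% with hybridisation control scaling and 71.3% with poly-A control scaling. Under poly-A control scaling 3 of the 9 genes were called, and so were 1228 of all 4398 probe sets, beside 2227 in the main fit.

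The double mutant and the wild type differ in both genes. All 9 genes in the main fit were called, 7 lower and 2 higher (MIG1 and MIG3), beside 36.6% of probe sets called lower and 37.9% higher (median log2 fold change 0.01). Arrays did not overlap for any of the 9, 7 lower and 2 higher, against 40.0% and 41.8% of all probe sets. CAT8 and MIG3 passed the filter through the strains where they were high, so these counts too describe the 9 genes that passed. MIG2 was again higher without the filter, with 33.8% of probe sets. The higher share of calls, 50.9%, was 69.7% with poly-A control scaling, which moved the median by 0.28. Under that scaling 7 of the 9 genes were called, and so were 2757 of all 4398 probe sets, beside 3277 in the main fit. The 3 comparisons share arrays pair by pair, so they are not independent of one another.

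The genes also differed in which other genes they resembled. Likeness was measured as the root mean square difference over the 8 arrays between log2 signals centred on each gene's mean, so smaller is closer, and it mostly reflects the 3 strain levels. It is not scaled for how much a gene varies. Genes with small steps therefore tend to lie closer, and its size does not compare between genes. CAT8 was closest to BNA6 (0.11), an enzyme gene of NAD synthesis, ATG39 (0.14), an autophagy receptor of the nuclear envelope, and YMR206W (0.17). ADR1 was closest to NUM1 and KGD2 (0.10 each), and the second of these encodes a subunit of the 2-oxoglutarate dehydrogenase of the tricarboxylic acid cycle. MIG2 was closest to YNR014W (0.19), the RNA helicase gene DBP2 (0.20) and the low-affinity glucose transporter gene HXT3 (0.20), and MIG1 to TDA1 (0.10), a kinase gene. SUC2 was closest to INM2 (0.10), an inositol monophosphatase gene, and SIP4 to FMP23 (0.078). HAP4 was closest to HKR1 (0.043), SNF1 to PTK2 (0.025) and REG1 to ESC1 (0.071). MIG3, with its split single-mutant signals, was nearest to YJL218W at 0.27. Among the 10 genes themselves the closest pairs were HAP4 with REG1 (0.16) and HAP4 with SNF1 (0.21), all with small steps, followed by SNF1 with REG1 (0.24), SIP4 with SUC2 (0.29) and ADR1 with SUC2 (0.32).

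The genes that Cat8, Sip4 and Adr1 are known to activate were lower in the double mutant than in the single mutant, most of them by large steps, and few of them differed between the single mutant and the wild type. Of 12 targets of Cat8 and Sip4, 12 were lower and none higher in the double against the single mutant. Over all probe sets 35.8% were lower and 31.8% higher. The median log2 fold change of the targets was -3.14, beside -0.02 over all probe sets. ADY2, an acetate transporter gene, stood at -4.24, the malate synthase gene MLS1 at -4.15, the gluconeogenic FBP1 (fructose-1,6-bisphosphatase) at -3.55 and SFC1, a mitochondrial succinate-fumarate carrier gene, at -3.32. FBP1 signals were 484, 298 and 167 in the double mutant, 4470, 5587 and 4312 in the single mutant and 6134 and 7040 in the wild type. Of 17 Adr1 targets, 17 were lower in the double against the single mutant, beside 35.8% of all probe sets, with a median of -3.02. They included the catalase gene CTA1 (-4.10), the thiolase gene POT1 (-4.06), the carnitine acetyltransferase gene YAT2 (-3.98) and the acyl-CoA oxidase gene POX1 (-3.42). ACS1, the acetyl-CoA synthetase gene, stands on both lists.

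In the single mutant relative to wild type, CAT8 was 2.43-fold and ADR1 1.63-fold lower. There limma called none of the 12 Cat8 and Sip4 targets (1 lower at an unadjusted p under 0.05). Over all probe sets 22.1% were called lower and 28.5% higher. The median of these targets was -0.08. Over 13 alternatives the number of them called lower was 0 to 2. Of the 17 Adr1 targets, 3 were lower, a share near the 22.1% of all probe sets, led by SPS19 at -0.65, an enzyme gene of unsaturated fatty acid breakdown, and ETR1 at -0.43. The isocitrate lyase homologue ICL2 (0.73) and the carnitine carrier gene CRC1 (0.35) were higher, beside 28.5% of all probe sets. The list's median was -0.03. The count of 5 Adr1 targets called was 2 with poly-A control scaling, where 1228 of all 4398 probe sets were called rather than 2227. The array levels show the same split: the median centred log2 signal of the Cat8 and Sip4 targets was -2.17 to -1.63 on double-mutant arrays, 1.08 to 1.23 on single-mutant arrays and 1.21 to 1.29 on wild-type arrays. For Adr1 targets it was -1.95 to -1.81 in the double mutant, 1.08 to 1.18 in the single mutant and 1.03 to 1.11 in the wild type.

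**Figure D3:**
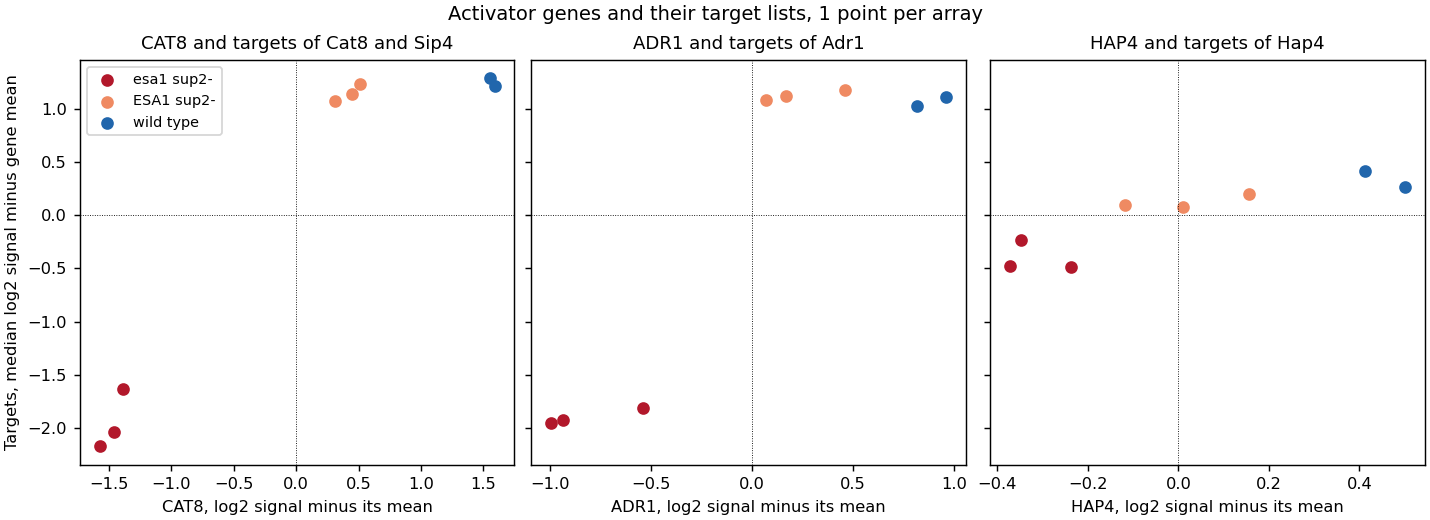
Each point is 1 array, with the log2 signal of CAT8, ADR1 or HAP4 minus its mean over arrays on the horizontal axis and the median centred log2 signal of that activator's targets on the vertical axis. For CAT8 and ADR1, the targets of ESA1 sup2- arrays lie at the height of wild-type arrays (1.08 to 1.23 beside 1.21 to 1.29 for Cat8 and Sip4 targets) although the activator genes differ, and esa1 sup2- arrays lie far below both.

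Hap4 targets, genes of the respiratory chain and the tricarboxylic acid cycle, moved by smaller steps, as HAP4 did. In the double against the single mutant 24 of 32 were lower and 1 higher, beside 35.8% and 31.8% of all probe sets. The list's median was -0.52. The succinate dehydrogenase gene SDH2 was at -1.72, the 2-oxoglutarate dehydrogenase gene KGD1 at -1.56, the citrate synthase gene CIT1 at -1.43 and the cytochrome oxidase gene COX6 at -1.21, while HEM1, of heme synthesis, was at 0.27. With poly-A control scaling 14 were lower and 3 higher, while 705 of all 4398 probe sets were called lower and 1618 higher. Against the wild type, 9 of 32 were lower in the single mutant, a share near the 22.1% of all probe sets, and none higher (12 lower and none higher at an unadjusted p under 0.05), with a median of -0.22 and ATP3 (-0.48) and CYT1 (-0.46) as the leading examples. The number lower there was 0 with poly-A control scaling, where 352 of all 4398 probe sets were lower, beside 974 in the main fit. Without single-mutant replicate 1 or 3 it was 3 each, beside 763 and 731 of all probe sets. Without double-mutant replicate 2 or 3 it was 14 each, beside 1144 and 1103. With quantile normalization it was 17, beside 1193.

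Of 12 other activators of growth without glucose, 7 were lower and 3 higher in the double against the single mutant, beside 35.8% and 31.8% of all probe sets, with a median of -0.33. The zinc cluster genes GSM1 (-0.92), ERT1 (-0.88) and RDS2 (-0.79) fell, and the general stress activator gene MSN2 (0.74) rose. In the single mutant relative to wild type 7 of 12 were lower and 2 higher, beside 22.1% and 28.5% of all probe sets, with a median of -0.37, led by GIS1 (-0.70) and USV1 (-0.60), while ERT1 (0.58) was higher. ERT1, like SIP4, was highest in the single mutant, at 223, 215 and 200 in the double mutant, 625, 315 and 594 in the single mutant and 324 and 260 in the wild type. With poly-A control scaling 4 rather than 7 were lower in the double against the single mutant. Of all 4398 probe sets 705 were lower with that scaling, rather than 1574. The count of 9 called in the single mutant was 3 with poly-A control scaling, where 1228 of all 4398 probe sets were called rather than 2227.

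Around the kinase, 10 of 12 genes passed the filter, and of these 5 were higher and 2 lower in the double against the single mutant, beside 31.8% and 35.8% of all probe sets. STD1 gave 799, 960 and 653 in the double mutant, 127, 116 and 143 in the single mutant and 136 and 124 in the wild type. TOS3, an upstream kinase gene, gave 841, 837 and 458 in the double mutant, 216, 155 and 202 in the single mutant and 118 and 99.1 in the wild type. Both are high in the double mutant, which raises the mean that the filter reads, while SAK1 and ELM1, which overlapped between the mutants, were left out as dim. The count therefore describes the 10 genes that passed and not the list. REG2, the relative of REG1 that is made when glucose is scarce, was at -2.48 and SIP2, which encodes a beta subunit of the kinase, at -1.75. STD1 and MTH1, regulators in glucose sensing, were at 1.88 and 1.65. REG2 is also on the list of Cat8 and Sip4 targets, and MTH1 on that of sugar genes repressed through Mig1. REG2 signals were 581, 381 and 307 in the double mutant, 2914, 2763 and 2863 in the single mutant and 3721 and 3752 in the wild type, a wider span than that of REG1. SIP2 signals were 270, 226 and 257 in the double mutant, 1217, 1082 and 1099 in the single mutant and 1423 and 1374 in the wild type. In the single mutant relative to wild type 1 of the 10, HXK2 for the main hexokinase, was higher at 0.79, beside 28.5% of all probe sets, and 3 were lower, a share near the 22.1% of all probe sets, MTH1 (-0.55), the phosphatase gene GLC7 (-0.41) and SIP2 (-0.28). Those 4 calls were 1 with poly-A control scaling, and 2 with hybridisation control scaling or without single-mutant replicate 2. In these fits 1228, 1861 and 2080 of all 4398 probe sets were called, beside 2227 in the main fit.

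Sugar genes known to be repressed through Mig1 did not share 1 direction in the double against the single mutant. The 6 tested were called higher, while some untested dim ones lay lower. Of the 12 on the array, 6 passed the filter on low values, and those called higher in the double against the single mutant were HXT2 (2.76), HXT4 (2.40), MTH1 (1.65), the hexokinase gene HXK1 (0.85), the glucokinase gene GLK1 (0.45) and the maltose transporter gene MAL31 (0.35). Over all probe sets 31.8% were called higher in that comparison. Of the hexose transporter genes, HXT4 gave 5033, 4975 and 3725 in the double mutant, 809, 600 and 902 in the single mutant and 1255 and 1197 in the wild type, both wild-type arrays lying between the mutants. HXT2 gave 4412, 5119 and 4004 in the double mutant, 667, 293 and 850 in the single mutant and 251 and 227 in the wild type. In the single mutant relative to wild type 5 of these 6 were lower and HXT2 (0.92) higher, beside 22.1% and 28.5% of all probe sets. That count of 6 called was 3 with poly-A control scaling, where 1228 of all 4398 probe sets were called rather than 2227. The filter acts on the mean over all arrays, so genes high in 1 strain pass more readily, and the values above describe these 6 genes alone. Of the 6 dim genes that were not tested, GAL1, GAL3, GAL7 and MAL32 had every double-mutant array below every single-mutant array. Among tested probe sets 37.3% did so, and no such share was computed for dim ones. The GAL7 arrays were split only narrowly, at 48.6 in the double mutant against 50.1 in the single mutant. The mutants overlapped for GAL10 and MAL11.

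Of 8 genes of repressors and corepressors, NRG2 (0.89), a zinc finger repressor gene, was higher in the double against the single mutant and the stress-induced repressor gene XBP1 (-0.63) lower. Over all probe sets 31.8% were called higher and 35.8% lower in that comparison. The corepressor genes CYC8 and TUP1 were at 0.19 and -0.15 (limma adjusted p = 0.105 and 0.282). The 2 calls were 4 with quantile normalization, median centring or without double-mutant replicate 2. In these fits 2822, 2933 and 2962 of all 4398 probe sets were called, beside 2971 in the main fit. In the single mutant relative to wild type XBP1 (-0.97) and NRG1 (-0.81) were lower and SFL1 (0.23) was higher, beside 22.1% and 28.5% of all probe sets. Leaving out single-mutant replicate 2 left 1 call there, as did the replicate block. In these fits 2080 and 2033 of all 4398 probe sets were called, beside 2227 in the main fit.

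**Figure D4:**
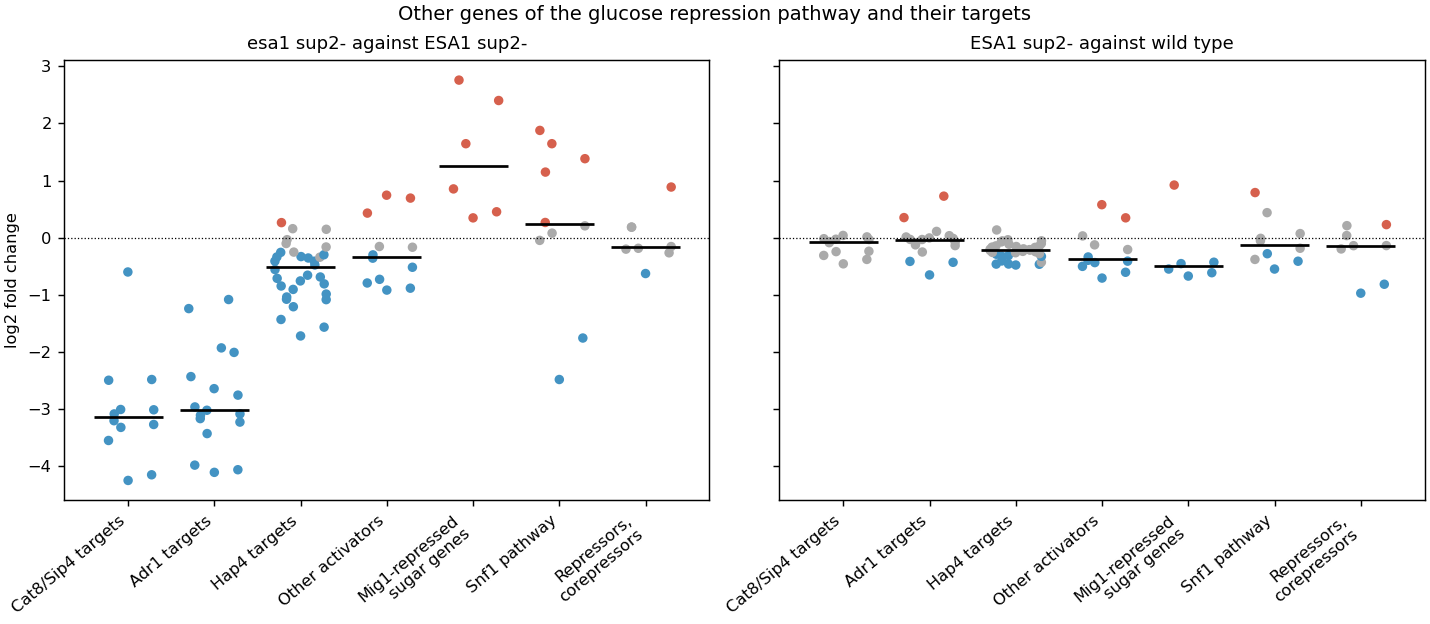
Log2 fold change of the genes measured on each of 7 lists around the 10 genes, for esa1 sup2- against ESA1 sup2- (left) and ESA1 sup2- against wild type (right). Points are genes (red called higher, blue called lower, grey not called) and bars are list medians over the genes that passed the filter, which for Cat8 and Sip4 targets are -3.14 on the left and -0.08 on the right.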

How the data were processed

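Total RNA (5 µg per array, hot phenol) was labelled with biotin, per the labels' protocols. The deposited table holds 1 linear intensity for each probe set and array, computed by the authors with the MAS5 algorithm of the GCOS software, per the submitters' processing notes, with versions not given in the sources used here. Trimmed means (2% off each end) lay within 499.78 and 499.84, so arrays shared a scale when deposited. From the deposited instrument records, values of another kind, only the fluidics station was taken.

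Probe sets of 1 S. cerevisiae gene (5498 of 10928) were named through the platform annotation, with 12 symbols updated through RefSeq's gene table. Analysis used log2(signal + 121), the constant being the 10th percentile of signals, with no further normalization. The dimmest 20% of probe sets, MIG2 among them, were not fitted. All 8 arrays entered a single limma model (version 3.58.1, R 4.3.3; lmFit, then eBayes with an intensity trend), with Benjamini-Hochberg adjustment over all probe sets and calls under 0.05. Scripts were tested on simulated data. Of each list, up to 4 called genes with the largest change were named, and of the like genes up to 3; further genes were chosen after their values were seen. Of 104 list symbols, 2 found no probe set. The 10 genes, the lists and the alternatives were chosen with earlier results of these data known. The alternatives tried are given in the closing section. Figures used matplotlib 3.10.9.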

Additional observations from a re-analysis of the deposited data

How the results depend on the processing

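The alternatives were other pseudocounts, 4 normalizations or scalings, other filters and variance models, the 2 strains alone, a block for the replicate number, and leaving out 1 array at a time. Fits of MIG2 without the filter under each of these, and the counts over lists, were added after seeing the data. Among values of single genes under an alternative, 540 kept their direction and side of the threshold, 31 lost the call, 8 gained it and 3 changed sign. All 3 were SNF1 in the double against the single mutant, which was at 0.02 in the main fit. They included -0.079 with hybridisation control scaling and -0.021 with 1 array left out. Over all arrays left out SNF1 ran from -0.021 to 0.072, and none of these values was called. The count of probe sets called in the single mutant relative to wild type (2227) was 1228 with poly-A control scaling and 1377 without the dimmest 50%, and 1407 to 2515 with 1 array left out. Without the dimmest 50%, where fewer probe sets are tested, it was 1930 in the double against the single mutant (2971) and 2092 in the double mutant against the wild type (3277). Of the 9 genes described here that were fitted, 5, 7 and 9 were called in these 3 comparisons, in the order just given; without the dimmest 50% they were 3, 4 and 5 of the 5 left, and 3 with poly-A control scaling in the single mutant relative to wild type; the cause of the changes with scaling was not tested. With 1 array left out they were 4 to 7, 6 to 7 and 8 to 9. With the replicate block the calls were 2033, 2894 and 3196 probe sets, and MIG2 in the single mutant relative to wild type was not called (limma adjusted p = 0.101). Deviations from the strain mean correlated at -0.09 to 0.14 between same-numbered arrays. With 2 or 3 arrays per strain these deviations are tied to each other, so the correlations cannot tell whether the number marks a shared batch. The labels do not say that it does.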

Other observations

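The galactose and maltose genes on the list of sugar genes were dim, and most were left out by the filter, so their signals are given with no test. GAL3, a sensor of galactose, gave 81.0, 96.8 and 79.6 in the double mutant, 263, 229 and 259 in the single mutant and 243 and 234 in the wild type. GAL1, the galactokinase gene, gave 102, 82.6 and 108 in the double mutant, 174, 136 and 165 in the single mutant and 203 and 211 in the wild type. The double-mutant arrays were the lowest for both genes. MAL32, a maltase gene, gave 128, 206 and 139 in the double mutant, 542, 288 and 497 in the single mutant and 202 and 167 in the wild type, so that the single mutant was highest, as for SIP4 and ERT1. MAL12, on the same list, found no probe set, and whether the MAL32 probe set also reads it was not tested. GAL1, GAL3 and MAL32 were chosen after their values were seen.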
